A study of Homo sapiens with 12 samples.

Results

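The mucin and trefoil genes of the stomach and intestine were followed across SNU638 gastric cancer cells in which SKA2 had been knocked down. The 10 genes were taken by symbol, as MUC1, MUC4, MUC5AC, MUC5B, MUC6, MUC13, MUC20, TFF1, TFF2 and TFF3, out of a table of 17303 genes. Values for 8 of them were analysed, and TFF2 and TFF3 were not analysed here. Only 4 of the 8 (MUC1, MUC5B, MUC6 and MUC20) had enough reads for a test, and MUC4, MUC5AC, MUC13 and TFF1 had too few. The libraries came from stable lines of SNU638, a human cell line established from a gastric cancer. All lines were infected with lentivirus and selected with puromycin. The 3 knockdown lines carried the short hairpin RNAs sh-SKA2-1, sh-SKA2-2 and sh-SKA2-3, and the fourth carried the control hairpin sh-control. Each line is represented by 3 libraries, 12 in all, and the line and its hairpin cannot be told apart. The series asked which genes depend on SKA2, a subunit of the complex that holds chromosomes to spindle microtubules.

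Mucins are large glycoproteins whose central repeats, rich in serine, threonine and proline, carry dense O-linked sugar chains. The gel-forming mucins MUC5AC, MUC5B and MUC6 are secreted and build the mucus layer; in the stomach MUC5AC is made by surface pit cells and MUC6 by neck and deep gland cells. MUC1, MUC4, MUC13 and MUC20 are mucins of the cell surface, and MUC1, MUC4 and MUC20 are known for contacts with receptor tyrosine kinases. Trefoil factors are small, disulphide-bonded peptides secreted with mucins, TFF1 by gastric pit cells, TFF2 by neck cells and TFF3 by intestinal goblet cells. The repeats also bear on where a read is placed, because a short read that falls inside them cannot be given 1 position within the transcript. The repeat units below were read from the sense strand of the longest coding transcript in GENCODE v29 (GRCh38), run in the coding direction and lie within the coding sequence, and they are shown as the stretches of the MUC1 and MUC20 transcripts within which a read has no single position.
MUC1 repeat unit: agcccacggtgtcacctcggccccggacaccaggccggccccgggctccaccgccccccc
MUC20 repeat unit: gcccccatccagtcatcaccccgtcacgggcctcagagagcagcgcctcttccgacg
The MUC1 unit is 60 bases long and occurs in 19 exact copies, or 40 copies at up to 10% mismatch, in a transcript of 4170 bases. The MUC20 unit is 57 bases long and occurs in 10 exact copies in a transcript of 2842 bases. Of all 50-base windows of the MUC1 transcript 42.4% recur within the same transcript, against 29.2% for MUC5B, 19.7% for MUC20 and 1.8% for MUC6.

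The genes lie on 4 chromosomes of GRCh38 (GENCODE v29). MUC1 is at chr1:155185824-155192916 on the minus strand. MUC20 (chr3:195720882-195741123, plus strand) and MUC4 (chr3:195746765-195812277, minus strand) are neighbours, and MUC13 lies elsewhere on the same chromosome (chr3:124905442-124953819, minus strand). MUC6 (chr11:1012821-1036706, minus strand), MUC5AC (chr11:1157953-1201138, plus strand) and MUC5B (chr11:1223066-1262172, plus strand) form the secreted mucin cluster, and TFF1 is at chr21:42362282-42366594 on the minus strand. MUC1 shares 48 exonic bases on the same strand with the protein-coding gene AL713999.1, an overlap shorter than the 50-base windows used here. No 50-base window of the longest coding MUC1 or MUC6 transcript occurs in a transcript of another gene. In MUC20, by contrast, 69.1% of the windows also occur in transcripts of other genes, chiefly its overlapping neighbour MUC20-OT1, which shares 1820 exonic bases on the same strand and was not analysed here. Reads given to MUC20 may therefore be reads of those transcripts, and its values are uncertain in that sense. MUC5B shares 434 exonic bases with the antisense gene MUC5B-AS1, which the library protocol cannot separate.

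The libraries held 1.47e+07 to 1.67e+07 counts each. SKA2 was at 24.0 ± 1.86, 25.3 ± 1.93 and 26.6 ± 1.57 CPM (counts scaled to a common library size) with sh-SKA2-1, sh-SKA2-2 and sh-SKA2-3, against 120 ± 4.84 CPM with sh-control (SD, n = 3 each). The first sh-SKA2-3 library and the first sh-control library stood apart from the other libraries of their lines, with a chi-square of 25.3 to 52.1 per degree of freedom against 1.69 to 6.74 for the other pairs, and calls of the mucins and of the list genes named below, and counts over lists, are given also without both of them where they change. The epithelial markers EPCAM, KRT8, KRT18, KRT19 and CLDN7 were high, from 65 TPM (an abundance scaled to transcript length and library size) for CLDN7 to 1520 TPM for KRT18, while CDH1 did not exceed 3.62 TPM. Of 6 markers of gastric pit cells, 3 were measured and none had enough reads for a test. Their summed level was at most 0.61 TPM in any library. Of 4 markers of gastric neck and gland cells, 3 were measured, and only MUC6 had enough reads for a test. They summed to 0.17 to 1.5 TPM over the libraries. MUC6 alone was at 0.17 to 1.32 TPM, and PGC and LIPF were each at 0 in 10 libraries. Parietal cell markers summed to at most 0.24 TPM, those of intestinal goblet and absorptive cells to at most 1.38 TPM, of endothelium to at most 0.18 TPM and of fibroblasts to at most 2.77 TPM. Leukocyte markers summed to 14.2 to 30.6 TPM over the libraries, with CD68 carrying the sum and PTPRC at 0 in 8 libraries. The summed level of the 8 epithelial markers was 3210 to 3340, 1630 to 1740 and 2840 to 3170 TPM with sh-SKA2-1, sh-SKA2-2 and sh-SKA2-3, against 3380 to 3770 TPM with sh-control, and its part in the differences below was not tested. In bulk RNA, fewer cells making a transcript and less of it per cell cannot be told apart.

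The secreted mucin and trefoil genes that mark gastric surface cells had at most 4 reads in any library. TFF1 was at 0 reads in 11 libraries and at 1 read in the third sh-SKA2-2 library. With 0 of 16100000 to 16700000 counts, the 3 counts that a 0 allows correspond to at most 0.179 to 0.187 CPM in an sh-control library. MUC5AC had 0, 4 and 4 reads with sh-SKA2-1, 2, 1 and 2 with sh-SKA2-2, and 2, 0 and 0 with sh-SKA2-3, against 3, 3 and 3 with sh-control. The lines overlapped, except that the sh-SKA2-2 and sh-SKA2-3 libraries were below the 3 sh-control libraries by 1 to 3 reads each. For the sum over the 3 libraries, exact 95% Poisson intervals, which cover counting error only, were 3.45 to 15.8, 1.62 to 11.7 and 0.242 to 7.22 reads with sh-SKA2-1, sh-SKA2-2 and sh-SKA2-3, against 4.12 to 17.1 with sh-control, and they overlapped.

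The cell-surface mucins MUC4 and MUC13 were also close to the floor. MUC13 had 3, 1 and 0 reads with sh-SKA2-1, 0, 3 and 4 with sh-SKA2-2 and 3, 1 and 1 with sh-SKA2-3, against 1, 1 and 0 with sh-control. MUC4 had 2, 2 and 3 reads with sh-SKA2-1, 1, 1 and 2 with sh-SKA2-2 and 2, 2 and 2 with sh-SKA2-3, against 3, 7 and 5 with sh-control. The MUC4 libraries of the 3 knockdown lines were at or below the lowest sh-control library. Its summed reads were 7 (2.81 to 14.4), 4 (1.09 to 10.2) and 6 (2.2 to 13.1) with sh-SKA2-1, sh-SKA2-2 and sh-SKA2-3, against 15 (8.4 to 24.7) with sh-control, the exact 95% Poisson interval in parentheses, and these intervals overlapped. When the filter on low counts was dropped, so that 17273 genes entered the fit, the 4 genes gave 28 tests over 7 comparisons. MUC4 was called lower in 2 of them in edgeR's quasi-likelihood test, with sh-SKA2-2 (adjusted p = 0.0199) and for the mean of the hairpins (adjusted p = 0.0152), on the few reads given here. No test of MUC5AC, MUC13 or TFF1 was called.

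Among the measured members, per transcript length, MUC1 was the highest mucin in sh-control cells, yet 37.9% of all genes were lower than it there, so that most genes were above it. Its level averaged 2.27 ± 0.653 TPM in sh-control (SD, n = 3), followed by MUC20 at 0.623 TPM and MUC6 at 0.497 TPM, whose libraries overlapped with each other and not with those of MUC1. MUC4, MUC5B, MUC13, MUC5AC and TFF1 followed at 0.0867, 0.0433, 0.0233, 0.0167 and 0 TPM. The order differed between the lines. In sh-SKA2-2 cells MUC20 came first at 3.26 TPM, with all of its libraries above those of MUC1 at 0.987 TPM and MUC6 at 0.7 TPM, which overlapped. In sh-SKA2-3 cells MUC1 was at 1.74 TPM, and MUC6 at 1.1 TPM and MUC20 at 0.9 TPM overlapped below it. In sh-SKA2-1 cells MUC1 at 1.36 TPM and MUC20 at 0.993 TPM overlapped, and MUC6 was below both at 0.22 TPM.

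**Figure D1:**
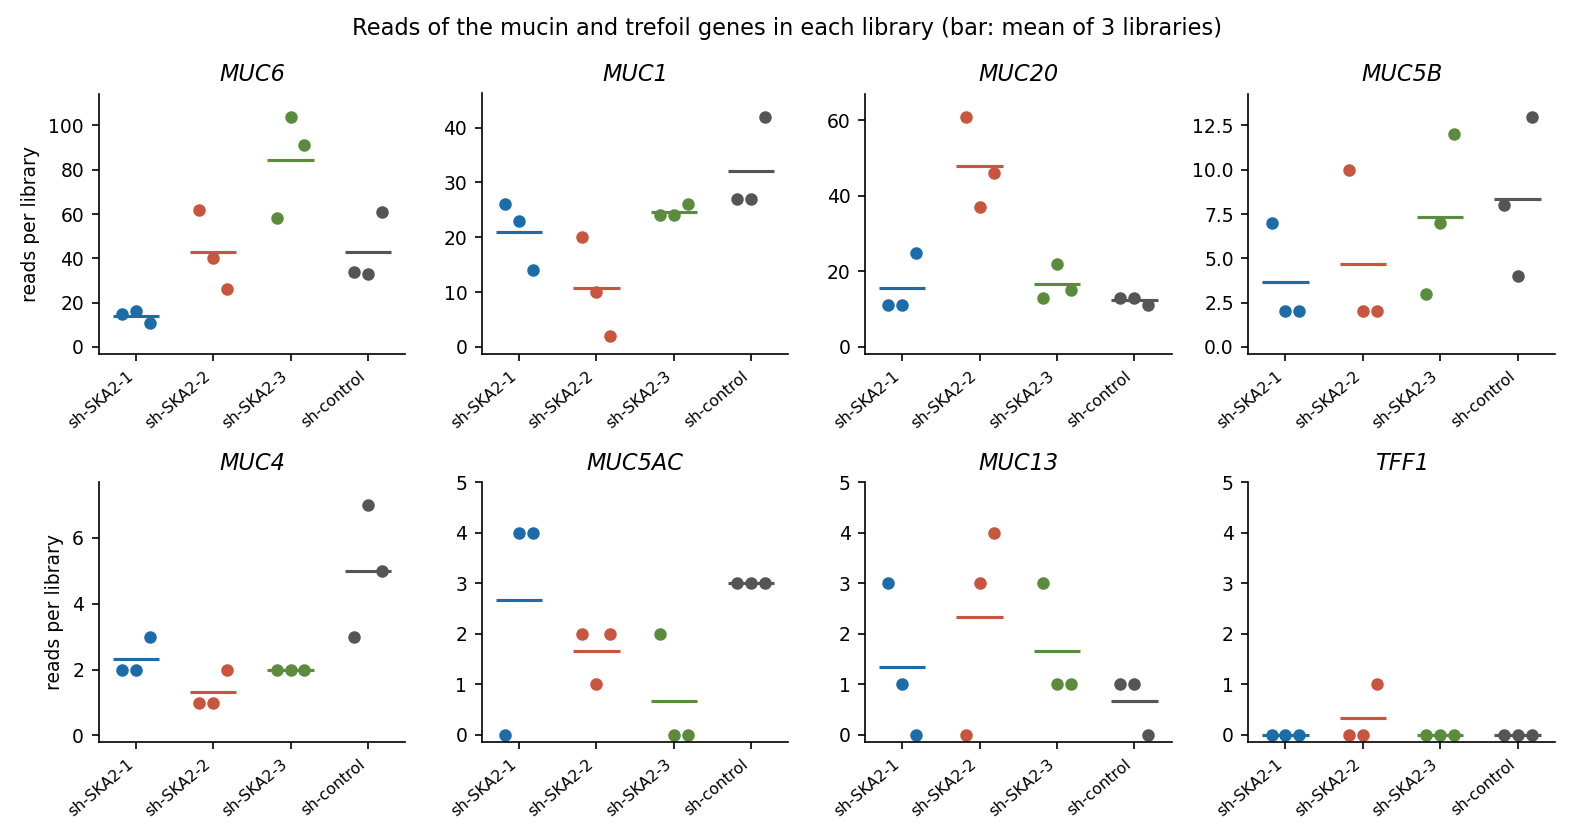
Reads of each mucin or trefoil gene in each library, by line, as deposited expected counts; points are libraries and bars are the means of 3 libraries. MUC6, MUC1 and MUC20 have the most reads. MUC6 reaches 104 reads with sh-SKA2-3 and MUC20 reaches 61 with sh-SKA2-2, while MUC4, MUC5AC, MUC13 and TFF1 stay at 7 reads or fewer.

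In each knockdown line 1 or 2 of the 4 tested mucins were called against sh-control, in different directions, beside a large share of all genes called. A call is an adjusted p under 0.05 in edgeR's quasi-likelihood test, adjusted by the Benjamini-Hochberg method over all 12868 genes tested. With sh-SKA2-1 MUC6 was called lower, 1 of 4, beside 63.1% of all genes called (31.5% higher and 31.5% lower). With sh-SKA2-2 MUC20 was called higher and MUC1 lower, 2 of 4, beside 74.4% of all genes (36.6% higher and 37.8% lower). With sh-SKA2-3 MUC6 was called higher, 1 of 4, beside 47.6% of all genes (23.6% higher and 24% lower). For the mean of the 3 hairpins MUC20 was called higher and MUC1 lower, 2 of 4, beside 69.5% of all genes (33.7% higher and 35.8% lower). The number of mucins called is therefore no more than the number that genes at large gave. Between the knockdown lines, MUC6 and MUC20 were called higher in sh-SKA2-2 than in sh-SKA2-1, 2 of 4, beside 57.6% of all genes (28.2% higher and 29.4% lower). MUC6 was called higher in sh-SKA2-3 than in sh-SKA2-1, 1 of 4, beside 9.45% of all genes (4.75% higher and 4.7% lower), a background of 1216 genes that became 7415 without the first sh-SKA2-3 and first sh-control libraries. MUC6 was called higher and MUC20 lower in sh-SKA2-3 than in sh-SKA2-2, 2 of 4, beside 65.3% of all genes (33.4% higher and 31.9% lower). The comparisons with sh-control share the same 3 control libraries.

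MUC6, the gel-forming mucin of gastric neck and gland cells, had the largest edgeR log2 fold change between knockdown lines among the tested mucins. It had 15, 16 and 11 reads with sh-SKA2-1, 62, 40 and 26 with sh-SKA2-2 and 58, 104 and 91 with sh-SKA2-3, against 34, 33 and 61 with sh-control. The sh-SKA2-1 libraries were below every other library. The sh-SKA2-2 libraries overlapped with sh-control, and so did sh-SKA2-3, whose lowest library was below the highest sh-control library. As CPM, MUC6 averaged 0.905 ± 0.182, 2.82 ± 1.24 and 5.37 ± 1.44 with sh-SKA2-1, sh-SKA2-2 and sh-SKA2-3, against 2.73 ± 1.01 with sh-control (SD, n = 3 each).

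MUC6 fell with sh-SKA2-1 by 1.58 ± 0.41 on the log2 scale (SE; adjusted p = 0.00617 in edgeR's quasi-likelihood test) and rose with sh-SKA2-3 by 0.98 ± 0.32 (adjusted p = 0.0256). With sh-SKA2-2 the log2 fold change was 0.04 ± 0.35 (adjusted p = 0.915), and the mean of the hairpins, at -0.19 ± 0.29, was not called (adjusted p = 0.578). The difference between the lines was itself tested. MUC6 was 2.56 ± 0.38 higher on the log2 scale in sh-SKA2-3 than in sh-SKA2-1 (adjusted p = 0.00349) and 1.63 ± 0.41 higher in sh-SKA2-2 than in sh-SKA2-1 (adjusted p = 0.00526), with no overlap between libraries in either case. It was 0.93 ± 0.32 higher in sh-SKA2-3 than in sh-SKA2-2 (adjusted p = 0.0226), with overlapping libraries. SKA2 itself was at 24 to 26.6 CPM on average in the 3 lines.

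The rise of MUC6 with sh-SKA2-3 was not called without the first or the second sh-control library (0.83 each, adjusted p = 0.06 and 0.0979), without the second or the third sh-SKA2-3 library (0.80 and 0.92, adjusted p = 0.0901 and 0.0558), with the 2 lines fitted alone (adjusted p = 0.0557), or when each library's trend with transcript length was taken out (0.70, adjusted p = 0.144). It was called without the first sh-control and first sh-SKA2-3 libraries together (1.04, adjusted p = 0.00453). Its excess in sh-SKA2-3 over sh-SKA2-2 was lost without the second or the third library of either line (0.67 to 0.88, adjusted p = 0.0579 to 0.0965). Counts depended on transcript length differently between libraries: at the length of MUC6 this trend was 0.18 to 0.21, 0.30 to 0.40 and -0.32 to 0.18 on the log2 scale with sh-SKA2-1, sh-SKA2-2 and sh-SKA2-3, against -0.63 to -0.14 with sh-control. With the trend taken out, MUC6 was at -2.21 with sh-SKA2-1 (adjusted p = 0.00243), at -0.73 with sh-SKA2-2 (adjusted p = 0.135) and at -0.75 for the mean of the hairpins (adjusted p = 0.0838). On the TPM scale the fall with sh-SKA2-1 was not called (-0.29 in log2(TPM + 1), adjusted p = 0.0561 in limma). The TPM themselves were 0.17 to 0.25 with sh-SKA2-1 against 0.38 to 0.65 with sh-control, without overlap. All of these lie below the 1 added before the log, which makes differences at this level smaller.

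MUC20, a cell-surface mucin known as a partner of the MET receptor, was high in the sh-SKA2-2 line. It had 11, 11 and 25 reads with sh-SKA2-1, 61, 37 and 46 with sh-SKA2-2 and 13, 22 and 15 with sh-SKA2-3, against 13, 13 and 11 with sh-control. Every sh-SKA2-2 library was above every library of the other lines, and the sh-SKA2-1 libraries overlapped with sh-control. The lowest sh-SKA2-3 library, at 0.846 CPM, was barely above the highest sh-control library, at 0.84 CPM. As CPM, MUC20 averaged 1.01 ± 0.502, 3.17 ± 0.866 and 1.06 ± 0.29 with sh-SKA2-1, sh-SKA2-2 and sh-SKA2-3, against 0.788 ± 0.0756 with sh-control (SD, n = 3 each). It rose with sh-SKA2-2 by 1.99 ± 0.32 on the log2 scale, 3.98-fold (adjusted p = 0.000162 in edgeR's quasi-likelihood test). With sh-SKA2-1 and sh-SKA2-3 the log2 fold changes were 0.35 ± 0.39 and 0.43 ± 0.38 (adjusted p = 0.44 and 0.375). The rise for the mean of the hairpins, 0.93 ± 0.31 (adjusted p = 0.0181), was not called without the third sh-control library (0.85, adjusted p = 0.0705) or with the 9 knockdown libraries as 1 group (1.14, adjusted p = 0.127). The line with sh-SKA2-2 was 1.64 ± 0.31 above sh-SKA2-1 (adjusted p = 0.000778), and sh-SKA2-3 was below sh-SKA2-2, at -1.57 ± 0.31 (adjusted p = 0.000868). These counts cannot be separated from MUC20-OT1 over the shared sequence.

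MUC1, a cell-surface mucin of most glandular epithelia, had fewer reads in each knockdown library than in any sh-control library, but by a small number of reads. It had 26, 23 and 14 reads with sh-SKA2-1, 20, 10 and 2 with sh-SKA2-2 and 24, 24 and 26 with sh-SKA2-3, against 27, 27 and 42 with sh-control. As CPM, it averaged 1.36 ± 0.421, 0.706 ± 0.608 and 1.57 ± 0.0637 with sh-SKA2-1, sh-SKA2-2 and sh-SKA2-3, against 2.04 ± 0.55 with sh-control (SD, n = 3 each). No knockdown library overlapped with sh-control in CPM, although the highest sh-SKA2-1 library, at 1.7 CPM, all but reached the lowest sh-control library, at 1.71 CPM. Per transcript length the knockdown libraries reached the sh-control range, with up to 1.72, 2.22 and 2.01 TPM with sh-SKA2-1, sh-SKA2-2 and sh-SKA2-3, against a lowest sh-control library at 1.72 TPM. MUC1 fell with sh-SKA2-2 by 1.53 ± 0.46 on the log2 scale (adjusted p = 0.00987 in edgeR's quasi-likelihood test). With sh-SKA2-1 and sh-SKA2-3 the log2 fold changes were -0.59 ± 0.41 and -0.38 ± 0.4 (adjusted p = 0.223 and 0.457).

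The sh-SKA2-2 libraries spread widely in MUC1, and the size of its fall there followed single libraries: it was -2.37 without the first sh-SKA2-2 library and -1.05 without the third, and called in both cases (adjusted p = 0.00127 and 0.0248). For the mean of the hairpins MUC1 fell by 0.83 ± 0.33 (adjusted p = 0.0421). That call was lost without any 1 of 7 libraries, namely the second or the third sh-SKA2-1, the second sh-SKA2-2, the second or the third sh-SKA2-3 and the second or the third sh-control library (-0.93 to -0.59, adjusted p = 0.0514 to 0.216). It was also lost on the TPM scale, with the length trend taken out (-0.52, adjusted p = 0.153) and with the 9 knockdown libraries as 1 group (-0.75, adjusted p = 0.193). Between knockdown lines no difference in MUC1 was called: -0.94 ± 0.49 for sh-SKA2-2 over sh-SKA2-1 (adjusted p = 0.121), 0.21 ± 0.42 for sh-SKA2-3 over sh-SKA2-1 (adjusted p = 0.742) and 1.16 ± 0.48 for sh-SKA2-3 over sh-SKA2-2 (adjusted p = 0.0513). Without the first sh-SKA2-2 library both differences from sh-SKA2-2 were called, at -1.76 over sh-SKA2-1 (adjusted p = 0.0143) and 1.99 for sh-SKA2-3 over it (adjusted p = 0.00589). The excess in sh-SKA2-3 over sh-SKA2-2 was also called without the third sh-control library (1.16, adjusted p = 0.0478), without the first sh-control and first sh-SKA2-3 libraries together (1.17, adjusted p = 0.0333) and in DESeq2 (adjusted p = 0.0311).

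The transcript length implied by the authors' values, the count divided by the FPKM and the library total, also varied for MUC1. It was 1845, 2154 and 1553 bases with sh-SKA2-1, 1134 and 2185 in the first and second sh-SKA2-2 libraries, and 1390, 1382 and 1652 with sh-SKA2-3, against 1334, 1404 and 1156 bases with sh-control. All sh-SKA2-1 libraries were above all sh-control libraries. For MUC6 the implied length was 7601 to 7923 bases and for MUC20 1799 to 1984 bases over the libraries. MUC1 has 23 annotated coding transcripts, and these lengths rest on 10 to 42 reads a library.

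MUC5B, the gel-forming mucin best known from the airways, only just passed the filter. It had 7, 2 and 2 reads with sh-SKA2-1, 10, 2 and 2 with sh-SKA2-2 and 3, 7 and 12 with sh-SKA2-3, against 8, 4 and 13 with sh-control. All lines overlapped. Its log2 fold changes were -1.14 ± 0.75, -0.78 ± 0.71 and -0.18 ± 0.65 with sh-SKA2-1, sh-SKA2-2 and sh-SKA2-3 (SE; adjusted p = 0.201, 0.339 and 0.833 in edgeR's quasi-likelihood test), and no difference was detectable at this depth.

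**Figure D2:**
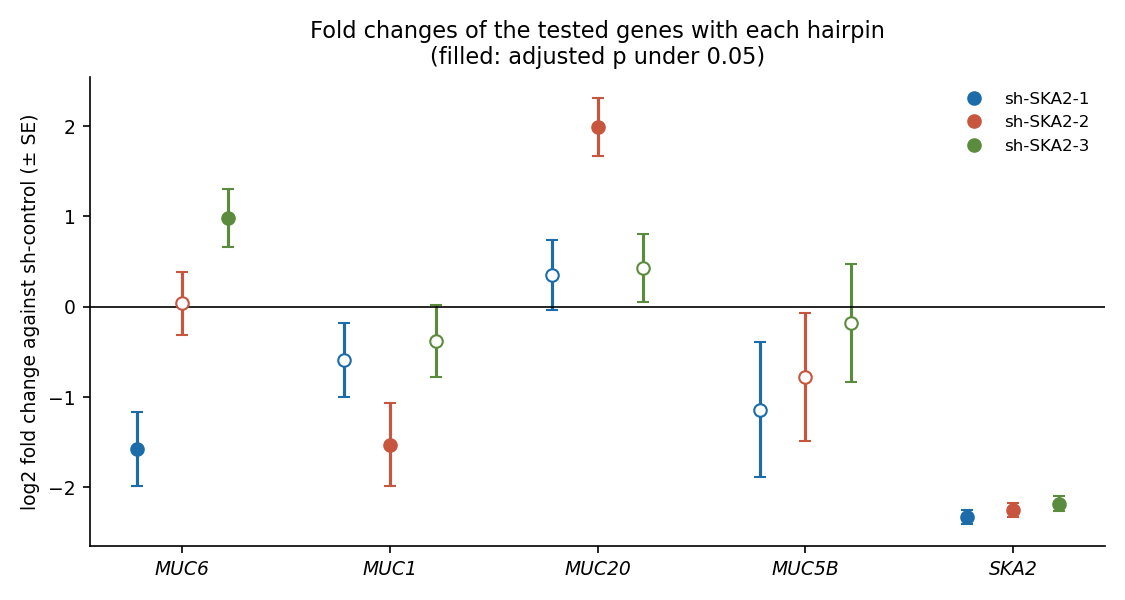
Log2 fold change of the 4 tested mucins and of SKA2 with each hairpin over sh-control, with bars of 1 SE and filled points for an adjusted p under 0.05, from edgeR's quasi-likelihood test on 3 libraries per line. MUC6 lies at -1.58 with sh-SKA2-1 and at 0.98 with sh-SKA2-3, MUC20 at 1.99 with sh-SKA2-2, and MUC1 is negative with each hairpin.

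The genes whose pattern over the 12 libraries was most like that of each mucin were read out as a description, by Pearson correlation of log2 CPM among 12131 genes. The points share lines, libraries and depth. For MUC6 the most alike were NR4A1 (r = 0.922) and FOSB (r = 0.911), both immediate early transcription factors, and TAF12 (r = 0.91), a subunit of the general factor TFIID. NR4A1 stood at 25.9, 69.7 and 89.6 CPM with sh-SKA2-1, sh-SKA2-2 and sh-SKA2-3, against 55.7 CPM with sh-control, and FOSB at 17, 45.2 and 54.9 CPM, against 36.4 CPM. Both had the order of MUC6, lowest in sh-SKA2-1 and highest in sh-SKA2-3. TAF12 stood at 28.6, 32.9 and 39.3 CPM, against 35.3 CPM, so that its sh-SKA2-2 mean was below sh-control, unlike that of MUC6. The genes were picked by their correlation with MUC6, so a shared order is not a separate result.

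MUC20 was most like NCBP2 (r = 0.963), a subunit of the nuclear cap-binding complex, GRHL2 (r = 0.957), a transcription factor of epithelial cells, and the glycosyltransferase gene B3GNT9 (r = 0.955). GRHL2 stood at 0.965, 2.77 and 1.13 CPM with sh-SKA2-1, sh-SKA2-2 and sh-SKA2-3, against 1.04 CPM with sh-control, so that its mean was highest in sh-SKA2-2. MUC1 was most like SPTBN5 (r = 0.895), a beta spectrin, RCCD1 (r = 0.89) and XKRX (r = 0.876). SPTBN5 stood at 3.57, 1.86 and 3.4 CPM with sh-SKA2-1, sh-SKA2-2 and sh-SKA2-3, against 4.71 CPM with sh-control, lowest in sh-SKA2-2 as MUC1 was. MUC5B, on its few reads, was most like GSK3A (r = 0.842), PPP2R5D (r = 0.824) and ANKRD54 (r = 0.798).

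**Figure D3:**
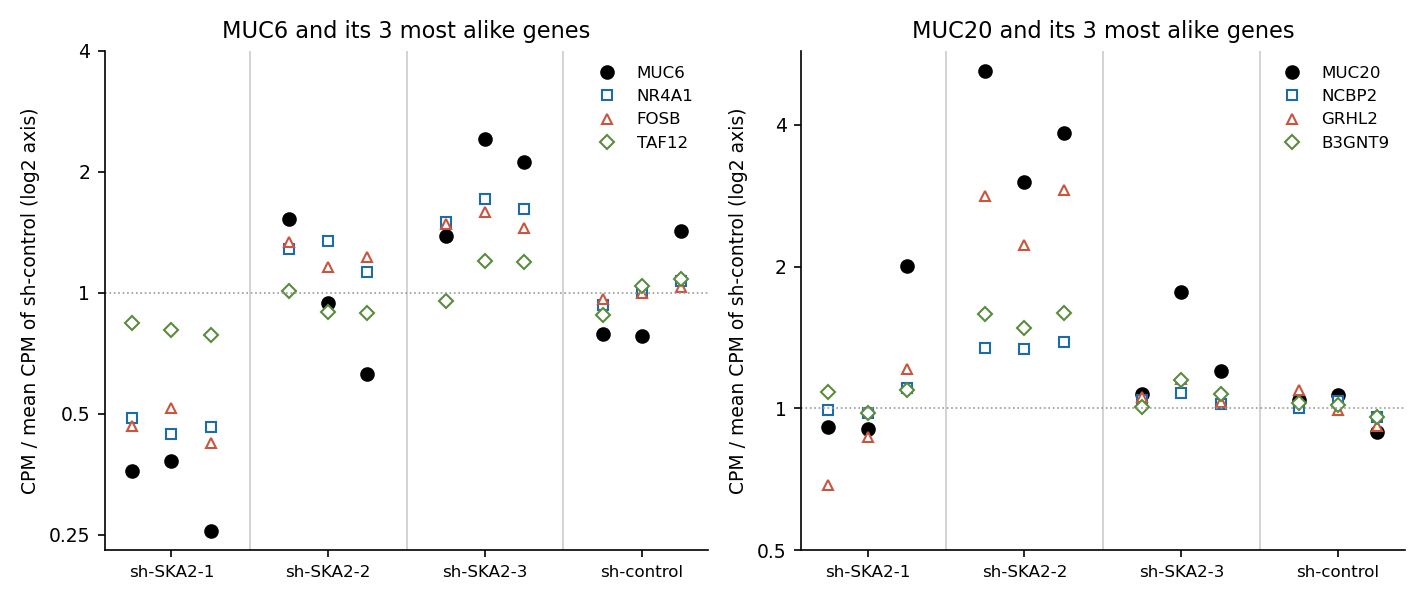
CPM in each library over the mean CPM of sh-control, on a log2 axis, of MUC6 (left) and MUC20 (right), each beside the 3 genes most like it, by line. NR4A1 and FOSB are lowest in sh-SKA2-1 and highest in sh-SKA2-3 like MUC6, and GRHL2 is highest in sh-SKA2-2 like MUC20.

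The rest of the mucus programme was read from lists of other mucins, of enzymes and factors that make and secrete mucins, and of neighbouring genes. Counts over these lists are read beside the 63.1, 74.4 and 47.6% of all genes that were called with sh-SKA2-1, sh-SKA2-2 and sh-SKA2-3, and no difference between a list and the other genes was tested. Without the first sh-SKA2-3 and first sh-control libraries the calls over all genes rose too, to 9766, 10631 and 7712, against 8114, 9574 and 6122 with all libraries. Among 16 other mucins and mucin-like genes 3 were tested. MUC2, the gel-forming mucin of the intestine, had 3 reads in all 12 libraries together, MUC16 had 2 and MUC17 had 5. CD164, a sialomucin of the cell surface, rose by 0.67 ± 0.14, 1.25 ± 0.14 and 0.63 ± 0.14 on the log2 scale with sh-SKA2-1, sh-SKA2-2 and sh-SKA2-3 (adjusted p = 0.00162, 8.34e-06 and 0.00313 in edgeR's quasi-likelihood test), to 223, 333 and 217 CPM against 140 CPM with sh-control. MCAM, a cell adhesion molecule of the immunoglobulin family, fell with each hairpin, to 0.793 ± 0.317, 0.306 ± 0.0974 and 3.63 ± 3.66 CPM against 22 ± 16.4 CPM with sh-control (SD, n = 3 each). Its fall with sh-SKA2-3 was not called with the 2 lines fitted alone (adjusted p = 0.0723). OVGP1, the oviduct mucin-like glycoprotein, was called lower with sh-SKA2-2 (-0.68 ± 0.25, adjusted p = 0.0301), and that call was lost without the first or the third sh-control library or the second or the third sh-SKA2-2 library (-0.73 to -0.49, adjusted p = 0.0523 to 0.122), with the length trend taken out (-0.39, adjusted p = 0.155) and on the TPM scale (-0.17, adjusted p = 0.312).

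The enzymes that build O-linked sugars on mucins moved in both directions. Of 34 listed, 23 were tested; 6, 9 and 5 were higher and 5, 10 and 5 lower with sh-SKA2-1, sh-SKA2-2 and sh-SKA2-3, with median log2 fold changes of 0.04, -0.16 and -0.1 beside 0.0059, -0.017 and 0.0086 over all genes tested. The share called was 47.8, 82.6 and 43.5%, near the share of all genes with sh-SKA2-2 and sh-SKA2-3 and below it with sh-SKA2-1. Without the first sh-SKA2-3 and first sh-control libraries 9, 9 and 6 were higher and 5, 10 and 6 lower. GALNT1 and GALNT10, which add the first sugar, rose with each hairpin, GALNT1 to 105, 141 and 92.2 CPM with sh-SKA2-1, sh-SKA2-2 and sh-SKA2-3, against 49.1 CPM with sh-control. The rise of GALNT10 with sh-SKA2-2, 0.74 on the log2 scale, was 0.20 and not called with the length trend taken out (adjusted p = 0.0697). GALNT6, of the same family, fell by 0.37 ± 0.07, 0.92 ± 0.07 and 0.50 ± 0.07 (adjusted p = 0.00117, 6.48e-07 and 0.000224 in edgeR's quasi-likelihood test), and with sh-SKA2-1 it was not called on the TPM scale (-0.01, adjusted p = 0.916). FUT1, a fucosyltransferase that makes the H antigen, fell to 6.13, 3.41 and 6.26 CPM with sh-SKA2-1, sh-SKA2-2 and sh-SKA2-3, against 12.6 CPM with sh-control. With sh-SKA2-3 the 5 enzymes called higher were GALNT1, GALNT2, GALNT10, FUT4 and the chaperone C1GALT1C1. The 5 called lower with sh-SKA2-1 and the 5 with sh-SKA2-3 were GALNT6, FUT1 and the sialyltransferases ST3GAL1, ST6GALNAC2 and ST6GALNAC4. On the TPM scale 11, 10 and 5 of these enzymes were higher and 1, 5 and 3 lower. There the median of all genes was itself shifted by 0.29, 0.33 and 0.12.

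Of 26 genes of mucin folding, granules and secretion, 16 were tested; 4, 4 and 2 were higher and 7, 6 and 5 lower with sh-SKA2-1, sh-SKA2-2 and sh-SKA2-3, with median log2 fold changes of -0.07, -0.02 and -0.12. The share called, 68.8, 62.5 and 43.8%, lay near that of all genes. Without the first sh-SKA2-3 and first sh-control libraries 5, 4 and 3 were higher and 6, 6 and 6 lower. AGR2, the disulphide isomerase needed for mucin folding in the mouse intestine, had too few reads, 25 over the 12 libraries. SYTL2, a Rab27 effector at the plasma membrane, rose to 2380 ± 44.3, 951 ± 10.4 and 1780 ± 356 CPM with sh-SKA2-1, sh-SKA2-2 and sh-SKA2-3, against 660 ± 167 CPM with sh-control (SD, n = 3 each; adjusted p = 6.26e-06, 0.0113 and 4.17e-05 in edgeR's quasi-likelihood test). RAB3D, a secretory granule GTPase, and UNC13D, a granule priming factor, fell with each hairpin, UNC13D to 2.07, 1.83 and 3.21 CPM against 8.61 CPM with sh-control, while RAB3D with sh-SKA2-2 was not called on the TPM scale (-0.20, adjusted p = 0.101). MYRF, a membrane-bound transcription factor, fell with sh-SKA2-2 by 1.58 ± 0.09 and with sh-SKA2-3 by 0.37 ± 0.08 (adjusted p = 4.78e-08 and 0.00396), and its log2 fold change with sh-SKA2-1 was -0.12 ± 0.08 (adjusted p = 0.211). With the length trend taken out MYRF was called lower with sh-SKA2-1 as well (-0.53, adjusted p = 0.000255), and on the TPM scale its fall with sh-SKA2-3 was not called (-0.18, adjusted p = 0.269). Beside SYTL2, the genes called higher were MARCKS, FCGBP and GNE with sh-SKA2-1, FCGBP, GNE and SLC35A1 with sh-SKA2-2, and MARCKS with sh-SKA2-3. FCGBP, which encodes a mucin-associated mucus protein, was at 0.80 with sh-SKA2-2, but at -0.30 with the length trend taken out (adjusted p = 0.258). Its call with sh-SKA2-1 was lost there too (0.02, adjusted p = 0.957), as was that of GNE (0.04, adjusted p = 0.691).

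Among 29 transcription factors of gastric and mucous cells 20 were tested; 7, 7 and 5 were higher and 7, 6 and 7 lower with sh-SKA2-1, sh-SKA2-2 and sh-SKA2-3, with medians of -0.14, 0.18 and -0.03. The share called was 70, 65 and 60%, on either side of that of all genes. Without the first sh-SKA2-3 and first sh-control libraries 7, 8 and 7 were higher and 8, 6 and 7 lower. FOXA2, a forkhead factor of gut endoderm, fell to 2.15 ± 0.298, 0.812 ± 0.327 and 2 ± 0.254 CPM, against 6.9 ± 0.441 CPM with sh-control. SOX2, a factor of the stomach and foregut lineage, rose to 5.48 ± 0.546, 2.95 ± 0.396 and 6.86 ± 0.547 CPM, against 1.32 ± 0.0842 CPM with sh-control (SD, n = 3 each). Both were called with each hairpin (adjusted p = 2.55e-05, 2.1e-07 and 1.68e-05 for FOXA2, and 1.55e-06, 6.54e-05 and 3.75e-07 for SOX2, in edgeR's quasi-likelihood test). ELF3 rose by 0.58 ± 0.1, 1.18 ± 0.1 and 1.18 ± 0.1 and KLF5 fell by 0.95 ± 0.11, 0.53 ± 0.11 and 1.22 ± 0.11 on the log2 scale, both called with each hairpin, but the fall of KLF5 with sh-SKA2-2 was not called on the TPM scale (-0.14, adjusted p = 0.445). With sh-SKA2-3 the 5 factors called higher were SOX2, ELF3, GATA6, ESRRG and SOX9. SPDEF, ATOH1, HNF4A and CDX2, which drive mucous and intestinal fates, had too few reads, from 1 for HNF4A to 57 for ATOH1 over the 12 libraries.

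Differentiation genes of the gastric surface, the glands and the intestine were mostly too scarce to test. Of 36 listed, 2 were tested. ANXA10, an annexin of gastric epithelium, stood at 242 ± 7.19, 80.2 ± 5.4 and 281 ± 18.2 CPM with sh-SKA2-1, sh-SKA2-2 and sh-SKA2-3, against 255 ± 5.4 CPM with sh-control (SD, n = 3 each), and it fell with sh-SKA2-2 by 1.67 ± 0.07 on the log2 scale (adjusted p = 4.82e-09 in edgeR's quasi-likelihood test). With sh-SKA2-1 and sh-SKA2-3 it was not called at -0.07 and 0.14. On the TPM scale, where the median of all genes was itself shifted by 0.29 and 0.12, it was called higher in both (0.30 each). With sh-SKA2-3 it was also called higher without the first sh-SKA2-3 library (0.19, adjusted p = 0.0374), without the first sh-control and first sh-SKA2-3 libraries together (0.18, adjusted p = 0.0101) and with the length trend taken out (0.33, adjusted p = 0.00241). LCN2, an iron-siderophore binding protein, fell to 2.73, 1.19 and 5.74 CPM, against 12.7 CPM with sh-control. CLDN18 and PGC, markers of the stomach, had 17 and 3 reads over the 12 libraries.

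**Figure D4:**
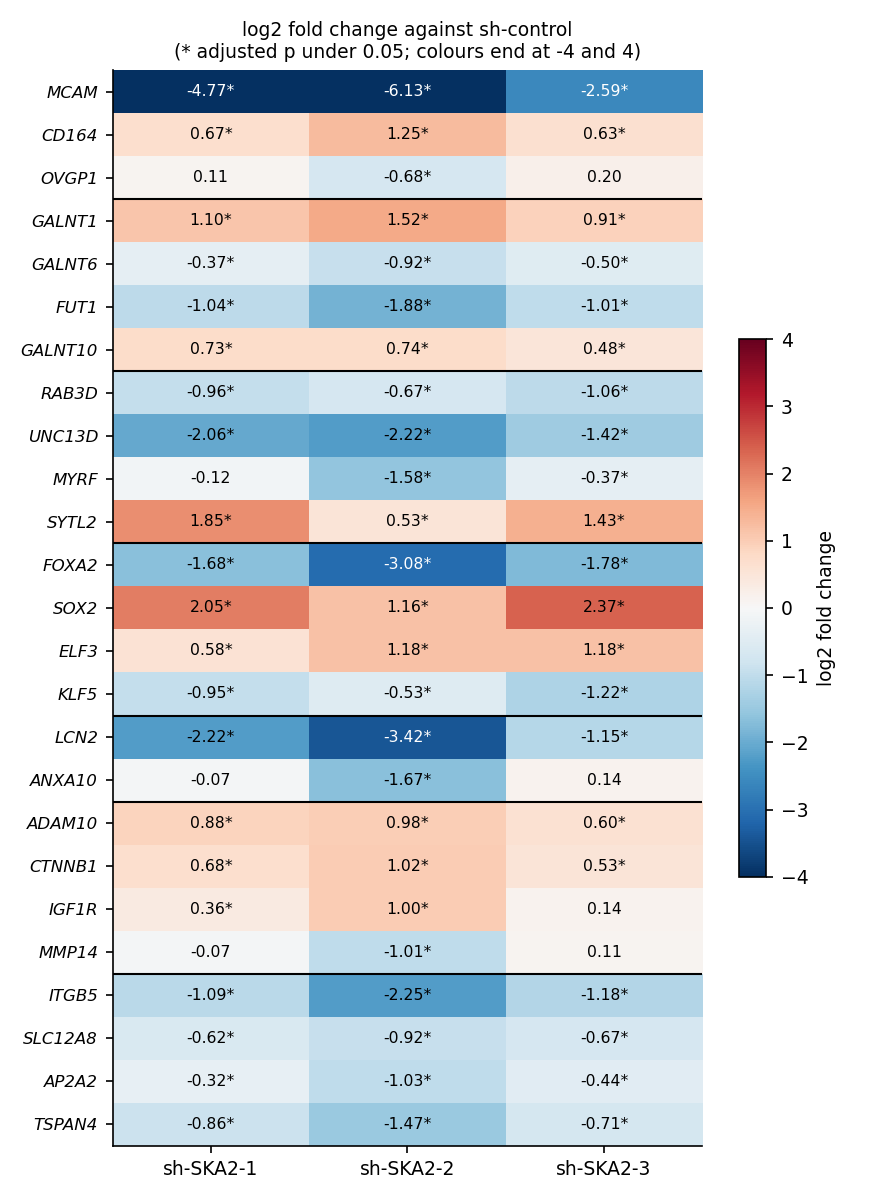
Heat map of the log2 fold change of the named genes (rows, with lines between the lists) with sh-SKA2-1, sh-SKA2-2 and sh-SKA2-3 over sh-control (columns), from edgeR on 3 libraries per line. Red is higher and blue lower with the hairpin, and a star marks an adjusted p under 0.05. FOXA2, UNC13D, LCN2 and MCAM lie below 0 and SOX2, SYTL2 and GALNT1 above 0 with each hairpin.

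Among signalling partners of the membrane mucins and candidate trefoil receptors, more genes were called higher than lower with sh-SKA2-1 and sh-SKA2-2, and the numbers changed with the treatment of transcript length. Of 23 listed, 18 were tested; 9, 10 and 5 were higher and 1, 2 and 3 lower with sh-SKA2-1, sh-SKA2-2 and sh-SKA2-3, with medians of 0.22, 0.38 and 0.12. The share called higher was 50, 55.6 and 27.8%, beside 31.5, 36.6 and 23.6% of all genes, and with sh-SKA2-3 the count was near that background. With the length trend taken out, 7, 7 and 5 were higher and 4, 4 and 5 lower, with medians of -0.06, 0.06 and 0.03. Without the first sh-SKA2-3 and first sh-control libraries 11, 12 and 7 were higher and 3, 3 and 3 lower. CTNNB1, the beta-catenin that binds the MUC1 tail, rose to 402, 510 and 362 CPM, against 251 CPM with sh-control. ADAM10, a sheddase of membrane proteins, rose to 134, 144 and 110 CPM, against 72.8 CPM. With sh-SKA2-3 neither was called when the 2 lines were fitted alone (adjusted p = 0.0597 for CTNNB1 and 0.0533 for ADAM10). IGF1R, a receptor tyrosine kinase, was called higher with sh-SKA2-1 (0.36 ± 0.11) and sh-SKA2-2 (1.00 ± 0.11), but its direction with sh-SKA2-1 turned to -0.34 with the length trend taken out (adjusted p = 0.00207), and with sh-SKA2-2 it was then 0.12 and not called (adjusted p = 0.182). Its call with sh-SKA2-1 was also lost without the third sh-control library (0.26, adjusted p = 0.0573) or the second sh-SKA2-1 library (0.30, adjusted p = 0.056). MMP14, another sheddase, fell with sh-SKA2-2 by 1.01 ± 0.08 and was at -0.07 and 0.11 with sh-SKA2-1 and sh-SKA2-3. Without the first sh-control and first sh-SKA2-3 libraries together it was called higher with sh-SKA2-3 (0.19, adjusted p = 0.0193). On the TPM scale it was called higher with sh-SKA2-3 (0.25, adjusted p = 0.0346 in limma) and with sh-SKA2-1 (0.30, adjusted p = 0.0105). On that scale the median of all genes was itself shifted by 0.12 with sh-SKA2-3 and 0.29 with sh-SKA2-1. The genes called higher with sh-SKA2-3 were ADAM10, CTNNB1, SOS1, ERBB3 and ERBB4. The gene called lower with sh-SKA2-1 was LGALS3, those called lower with sh-SKA2-2 were MMP14 and SRC, and those called lower with sh-SKA2-3 were LGALS3, EGFR and ADAM17, with EGFR at 386 ± 116 CPM against 740 ± 231 CPM with sh-control.

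Among genes next to the mucin and trefoil loci, more were called lower than higher with sh-SKA2-1 and sh-SKA2-2. Of 35 listed, 26 were tested; 3, 6 and 4 were higher and 12, 15 and 7 lower with sh-SKA2-1, sh-SKA2-2 and sh-SKA2-3, with medians of -0.26, -0.48 and -0.17. The share called lower was 46.2, 57.7 and 26.9%, beside 31.5, 37.8 and 24% of all genes, and with sh-SKA2-3 the count was near that background. On the TPM scale, where the median of all genes was itself shifted by 0.29, 0.33 and 0.12, 10, 9 and 7 were higher and 4, 10 and 5 lower, so that for sh-SKA2-1 and sh-SKA2-3 more were higher than lower on that scale. With the length trend taken out, 5, 9 and 6 were higher and 10, 12 and 8 lower, with medians of -0.21, -0.11 and -0.18. Without the first sh-SKA2-3 and first sh-control libraries 4, 6 and 5 were higher and 16, 16 and 11 lower. ITGB5, an integrin subunit near MUC13, fell to 72.8 ± 1.17, 32.5 ± 1.21 and 68.4 ± 4.07 CPM, against 155 ± 6.83 CPM with sh-control (SD, n = 3 each), with adjusted p = 2.04e-07, 5.22e-10 and 1.14e-07 in edgeR's quasi-likelihood test. Beside it SLC12A8 fell by 0.62 ± 0.07, 0.92 ± 0.08 and 0.67 ± 0.07 on the log2 scale, and with sh-SKA2-1 it was not called on the TPM scale (-0.22, adjusted p = 0.0874). Next to the secreted mucin cluster, TSPAN4 and AP2A2 fell with each hairpin, TSPAN4 to 20.8, 13.6 and 23.1 CPM against 37.8 CPM with sh-control, while AP2A2 with sh-SKA2-1 was 0.17 on the TPM scale (adjusted p = 0.148 in limma) and with sh-SKA2-3 it was not called there (-0.24, adjusted p = 0.0655). The neighbours called higher were TFRC, RSPH1 and HEG1 with sh-SKA2-1 and TFRC, EFNA1, RSPH1 and UMPS with sh-SKA2-3. Over all genes 50, 49.2 and 49.6% of calls were higher with sh-SKA2-1, sh-SKA2-2 and sh-SKA2-3, against 78.9, 71.7 and 60.9% on the TPM scale.

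**Figure D5:**
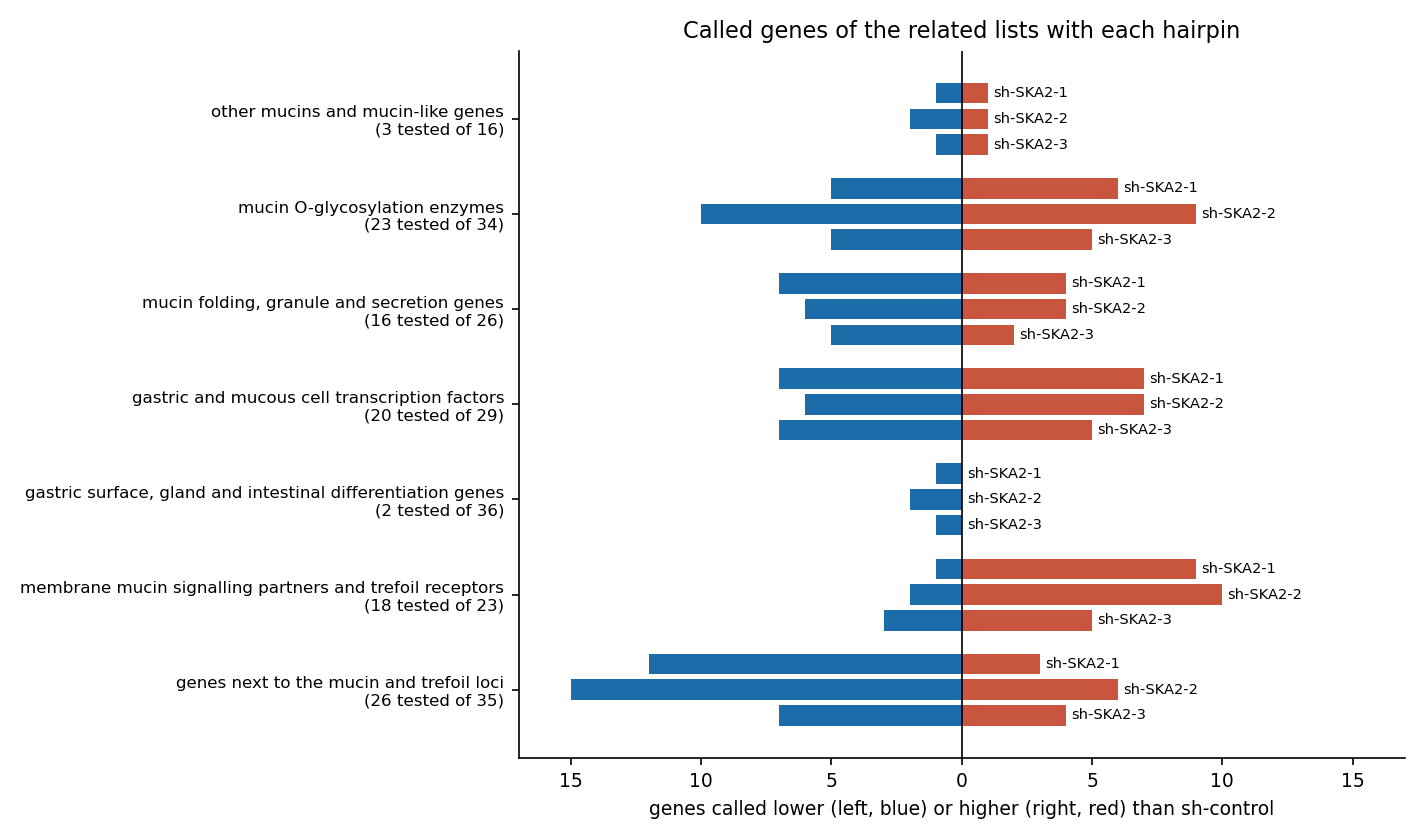
Number of tested genes of each list called higher or lower with sh-SKA2-1, sh-SKA2-2 and sh-SKA2-3 over sh-control in edgeR's test. With sh-SKA2-2, 10 signalling partners are higher and 2 lower, and 6 locus neighbours are higher and 15 lower, beside 36.6% of all genes higher and 37.8% lower.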

How the data were processed

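RNA-seq was made from 12 libraries of SNU638 lines. Per the labels' protocols, Trizol RNA was enriched for polyadenylated mRNA, fragmented and primed with random hexamers, with no step that marks the strand, and sequenced on the BGISEQ-500 platform. Per the submitters' processing notes, the tools were DESeq2, RSEM, Bowtie2 and HISAT and the build was GRCh38.p13. For each, the role and the version were not given in the sources used here. Deposited by the authors were, per the file headers, expected counts, FPKM and TPM for 17303 genes. The deposited expected counts share ambiguous reads between genes, and 84% to 86% per library were whole; those of the mucin and trefoil genes all were. The deposited FPKM were used for implied transcript lengths. The deposited TPM gave levels between genes, and log2(TPM + 1) was tested with limma as an alternative. A further 15 columns of the authors' averages were not used.

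Expected counts were rounded and tested with edgeR (4.0.16, R 4.3.3): its expression filter, which left 12868 genes, TMM scaling, and a quasi-likelihood fit of 1 level per line to the 12 libraries (8 residual degrees of freedom, biological coefficient of variation 0.111). Tests were two-sided, with Benjamini-Hochberg adjustment over all genes tested. The SE is the absolute log2 fold change divided by the square root of the F statistic, and CPM are counts scaled to library size after TMM. Spread between hairpins does not enter the error of their mean. Whether a line's libraries are separate cultures is not stated, so p-values measure only the spread between libraries, which may be technical. The script was tested on simulated data.

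Alternatives were DESeq2 size factors, DESeq2 (1.42.0), no filter, limma (3.58.1) on TPM, the replicate number as a block, offsets that take out each library's trend with transcript length, the compared lines alone, and leaving out each library. Leaving out the first sh-SKA2-3 and first sh-control libraries together, and treating the 9 knockdown libraries as 1 group, were chosen after seeing the data. Same-numbered libraries of sh-SKA2-3 and sh-control deviated together from their line means in each of the 3 pairs (r = 0.728, 0.17 and 0.6), a pairing that comes from the data and not from the labels; the other line pairs showed none.

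The genes and lists were chosen with earlier results of these data known. Named were the members, up to 4 genes per list with the smallest adjusted p for the mean of the hairpins, the genes behind a list count of 5 or fewer against sh-control, and the 3 most alike genes of at least 1 CPM for each tested member. GRHL2 and the untested list genes were singled out after their values were seen.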

Additional observations from a re-analysis of the deposited data

Results flagged for a closer look

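Differences between the knockdown lines in MUC6 and MUC20 passed the test of the difference itself, in edgeR's quasi-likelihood test, adjusted over all genes by the Benjamini-Hochberg method. The log2 difference in MUC6 was 2.56 for sh-SKA2-3 over sh-SKA2-1 (adjusted p = 0.00349), 1.63 for sh-SKA2-2 over sh-SKA2-1 (adjusted p = 0.00526) and 0.93 for sh-SKA2-3 over sh-SKA2-2 (adjusted p = 0.0226). The log2 difference in MUC20 was 1.64 for sh-SKA2-2 over sh-SKA2-1 (adjusted p = 0.000778) and -1.57 for sh-SKA2-3 over sh-SKA2-2 (adjusted p = 0.000868). MUC20 in sh-SKA2-3 and sh-SKA2-1 differed by 0.07 ± 0.37 (adjusted p = 0.897). MUC6 rests on 42 reads over the 3 sh-SKA2-1 libraries, 128 over sh-SKA2-2 and 253 over sh-SKA2-3. MUC20 rests on 47, 144 and 50 reads.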

How the results depend on the processing

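No tested mucin changed direction while called in any alternative. The fall of MUC1 and the rise of MUC20 with sh-SKA2-2, the excess of MUC6 in both other knockdown lines over sh-SKA2-1 and that of MUC20 in sh-SKA2-2 over both were called in every alternative run. On the TPM scale the mucins called were 0 with sh-SKA2-1 (MUC6 at -0.29, adjusted p = 0.0561) and 1 for the mean of the hairpins; with length offsets they were 0 with sh-SKA2-3 and 1 for the mean; with the compared lines alone they were 0 with sh-SKA2-3; with the 9 knockdown libraries as 1 group they were 0 for the mean. Leaving out each library gave 0 to 1 mucins with sh-SKA2-3, 0 to 2 for the mean, 2 to 3 for sh-SKA2-2 over sh-SKA2-1 and 1 to 3 for sh-SKA2-3 over sh-SKA2-2. Over all genes, calls with sh-SKA2-3 were 6122, and 3458 with the compared lines alone; for the mean they were 8947, and 4926 with the knockdown libraries as 1 group. For sh-SKA2-3 over sh-SKA2-1 they were 1216, with 1955 in DESeq2, 336 with the compared lines alone, 7415 without the 2 libraries that stood apart and 239 to 5267 leaving out each library. With the replicate block 8204, 9635 and 6301 genes were called with sh-SKA2-1, sh-SKA2-2 and sh-SKA2-3, and the block changed no call of a mucin or of a named list gene; 5 of 12 libraries deviated most like their own number. Among named list genes, directions turned for ANXA10 with sh-SKA2-1 (0.30 with length offsets and on the TPM scale), IGF1R with length offsets (-0.34 with sh-SKA2-1, -0.20 with sh-SKA2-3), AP2A2 and MMP14 with sh-SKA2-1 on the TPM scale (0.17 and 0.30), SRC with sh-SKA2-2 on the TPM scale (0.01), and with length offsets FCGBP and GNE with sh-SKA2-2 (-0.30 and -0.05), HEG1 with sh-SKA2-1 (-0.24) and UMPS with sh-SKA2-3 (-0.02). Further list genes lost a call without some single library: ADAM17, EFNA1, ERBB3, GALNT2, LGALS3, MARCKS, SOS1 and UMPS with sh-SKA2-3, ST6GALNAC2 with sh-SKA2-1, and GNE and HEG1. Among the list genes named for short counts, calls were lost on the TPM scale for ST3GAL1 and ST6GALNAC2 (sh-SKA2-1 and sh-SKA2-3), ST6GALNAC4 (sh-SKA2-1) and ADAM17, ERBB3, ERBB4 and SOS1 (sh-SKA2-3); with length offsets for GALNT2 and MARCKS (sh-SKA2-3) and LGALS3 and ST6GALNAC2 (sh-SKA2-1); with the compared lines alone for ADAM17, EFNA1, ERBB3, GALNT2, LGALS3, MARCKS, SOS1, ST6GALNAC4, TFRC and UMPS (sh-SKA2-3); and with no filter for HEG1 (sh-SKA2-1) and UMPS (sh-SKA2-3). The cause was not tested. On the TPM scale the median of all genes was itself shifted by 0.29, 0.33 and 0.12 with sh-SKA2-1, sh-SKA2-2 and sh-SKA2-3. Depth limits MUC4, MUC5AC, MUC5B, MUC13 and TFF1, whose summed reads per line were 25 or fewer.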
